A study of Mus musculus with 24 samples.

Results

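Muscle fibers take up fatty acids from outside, bind and activate them, carry them across the mitochondrial membranes as carnitine esters, and shorten them by repeated cycles of dehydrogenation, hydration, a second dehydrogenation, and thiolysis. The acetyl-CoA released enters the citrate cycle, where it meets acetyl-CoA made from pyruvate by the pyruvate dehydrogenase complex, and pyruvate dehydrogenase kinases switch that complex off by phosphorylation. In skeletal muscle, genes of these routes are known to respond to fasting and to repeated contraction, often through the nuclear receptors of the PPAR and ERR families.

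The 47 genes described here were taken by name from a table of 56941 genes and fall into 2 classes. The fatty acid class of 27 genes covers uptake, storage, the carnitine shuttle, beta-oxidation, electron transfer, and the uncoupling proteins. The citrate cycle class of 20 genes covers the pyruvate dehydrogenase complex, its kinases Pdk2, Pdk3, and Pdk4, and the enzymes of the cycle. All 47 passed the filter on low counts. Measurements came from bulk RNA sequencing (RNA-seq) of 24 muscle monolayers grown from C2C12, a mouse myoblast line, that expressed ChR2(H134R) fused to tdTomato (genotype label ChR2::tdTomato), a light-gated channel that lets a blue light pulse trigger contraction. All tissues shared this line and its transgene, and all were differentiated in medium with horse serum and IGF-1 on a hydrogel. The 4 conditions, with 6 biological replicates each, were an unstimulated control and daily light for 30 min at 1, 4, or 10 Hz. Control tissues received no light, so light and the contraction it triggers cannot be told apart, and the study saw spontaneous twitching in every condition. The tissues came from 1 engineered line, without blood supply or nerve.

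Total counts per library ranged from 4.09 to 15.2 M reads, with a median of 7.48 M. They were 4.19 to 7.65 M in control and 7.55 to 11.5 M at 4 Hz, ranges that met only at the edge. At 1 and 10 Hz they were 4.09 to 15.2 M and 5.41 to 12.1 M. Of all genes tested, 18.1% rose and 17.3% fell at 1 Hz, 19.2% and 20.2% at 4 Hz, and 2.67% and 2.22% at 10 Hz. Beside these shares, of 10 myotube marker genes 7 rose at 1 Hz and the same number at 4 Hz, against 1 (Myh3) at 10 Hz. Their summed level was 6539 to 7414 TPM (a level scaled by transcript length) in control, 7769 to 11360 at 1 Hz, 8258 to 12516 at 4 Hz, and 5304 to 7743 at 10 Hz. Of 8 markers of cycling or undifferentiated myoblasts, 1 rose and 1 fell at 1 Hz, and 4 rose and 2 fell at 4 Hz. Their median differences were -0.20, 0.44, and 0.07 (log2) at 1, 4, and 10 Hz. Summed, they were at 112 to 143 TPM in control and 80.7 to 113 TPM at 1 Hz, ranges that met only at the edge. At 4 and 10 Hz the sums were 100 to 152 and 118 to 154 TPM. The fat cell was checked as another source of lipid genes, and 7 of its 8 markers were too low to be tested, with Cfd at 0 in all 24 libraries and Plin1 at 0 in 21. Pparg, a nuclear receptor that is also in the wider fatty acid list, was tested at 5.92 to 13.0 TPM. It rose by 0.41 ± 0.10 (log2, SE) at 1 Hz (edgeR adjusted p = 0.00311), differed by 0.18 ± 0.10 at 4 Hz and by -0.19 ± 0.10 at 10 Hz, and was lower at 10 Hz than at 1 Hz (-0.60 ± 0.10, adjusted p = 5.93e-05) and at 4 Hz (-0.38 ± 0.10, adjusted p = 0.00831). Its part in the fatty acid results was not tested. Small non-polyadenylated RNAs were at 98.8 to 169 CPM (counts scaled to a common library total) in control, 15.5 to 70.2 at 1 Hz, 18.3 to 51.1 at 4 Hz, and 38.5 to 274 at 10 Hz, so that 1 and 4 Hz libraries did not overlap with control. The myotube markers and the small RNA share thus moved with 1 and 4 Hz, while both overlapped with control at 10 Hz. Transcripts of the mitochondrial genome took 2.01 to 3.18% of counts in control, 1.46 to 2.47% at 1 Hz, and 2.28 to 4.79% at 10 Hz. At 4 Hz they took 3.47 to 4.71% in replicates 3, 4, and 5 and 1.80 to 2.01% in the others. The part of these measures in the differences given below was not tested, apart from the small RNA share. In bulk tissue, fewer fibers and less RNA per fiber cannot be told apart.

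In unstimulated muscle, the summed level of the citrate cycle class lay above that of the fatty acid class, with no overlap between libraries. Summed over the 27 fatty acid genes, the level was 2017 ± 188 TPM in control (SD, n = 6), and over the 20 citrate cycle genes it was 2417 ± 91.0 TPM (SD, n = 6). The sums stayed close to these at every frequency, with means of 1943 to 2031 TPM for the fatty acid class and 2313 to 2522 TPM for the citrate cycle class. The fatty acid sum depends most on Plin2. Its mean was 602 TPM in control, 432 at 1 Hz, 322 at 4 Hz, and 525 at 10 Hz. A steady sum therefore does not show that the other fatty acid genes stayed level. Plin2, which coats lipid droplets, led its class with 602 ± 79.7 TPM in control (SD, n = 6), or 29.9% of the class sum. Acadl, the long-chain acyl-CoA dehydrogenase, followed with 147 ± 14.3 TPM and Etfa, a subunit of the electron transfer flavoprotein, with 146 ± 6.24 TPM (SD, n = 6 each). Acadl and Etfa did not differ beyond their spread. In the citrate cycle class, the mitochondrial malate dehydrogenase Mdh2 led with 326 ± 25.1 TPM, ahead of Pdhb, the E1 beta subunit of pyruvate dehydrogenase, with 229 ± 15.5 TPM and of the cytosolic Mdh1 with 212 ± 24.2 TPM (SD, n = 6 each). Control ranges of Pdhb and Mdh1 overlapped. The muscle isoform of the carnitine palmitoyltransferase, Cpt1b, was the lowest of the fatty acid genes, and made up 16 ± 8.7% of Cpt1a plus Cpt1b (SD, n = 6, TPM).

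**Figure D1:**
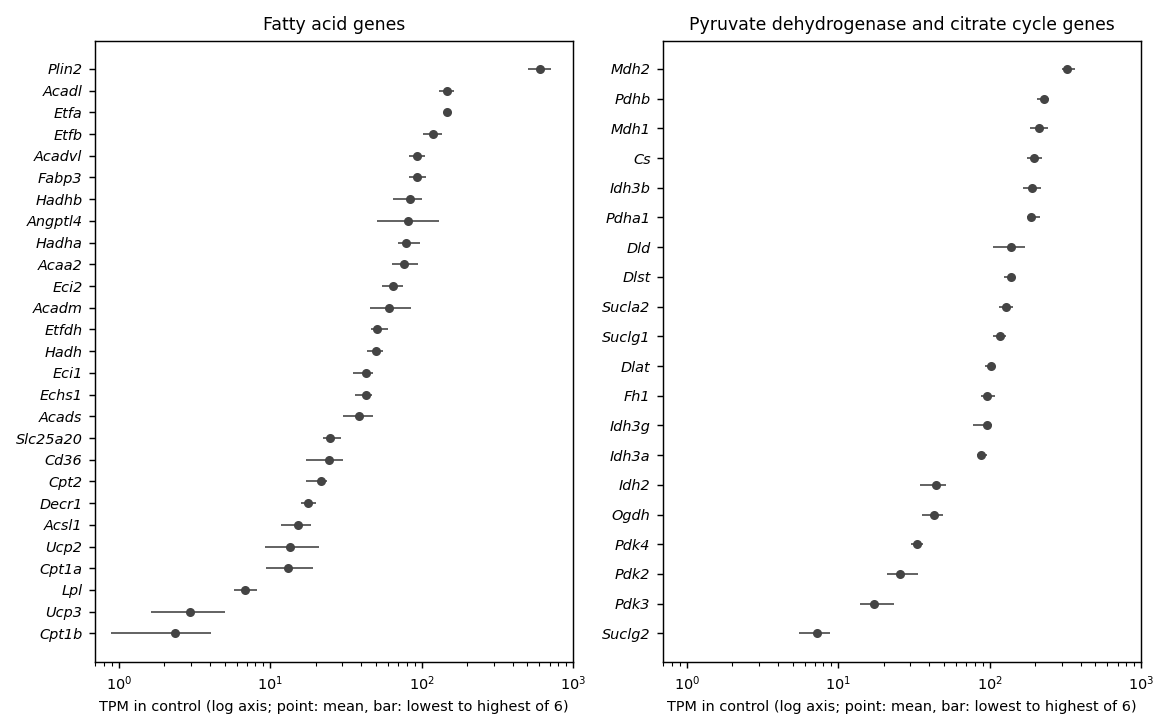
Level of each of the 47 genes in unstimulated control muscle, in TPM on a log axis, with the 27 fatty acid genes on the left and the 20 pyruvate dehydrogenase and citrate cycle genes on the right. Points are means and bars run from the lowest to the highest of 6 libraries; Plin2 stands above its class at 602 TPM and Suclg2 is the lowest of the citrate cycle genes.

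More fatty acid genes rose than fell at 1 and 4 Hz, and 2 passed at 10 Hz. Changes are log2 fold changes of CPM, and rises and falls are calls with an adjusted p below 0.05 (edgeR quasi-likelihood, 13318 genes). At 1 Hz, 8 of 27 rose and 3 fell, where 18.1% of all genes tested rose and 17.3% fell. At 4 Hz, 10 rose and 2 fell, against 19.2% and 20.2% of all genes. At 10 Hz, 2 rose and 0 fell, against 2.67% and 2.22% of all genes. With the study's further condition of an absolute log2 fold change above 0.5, the fatty acid genes counted were 2 higher and 0 lower at 1 Hz (9.34% and 8.99% of all genes), 5 higher and 1 lower at 4 Hz (10.5% and 9.61%), and 1 higher and 0 lower at 10 Hz (1.24% and 0.623%). Without control replicate 6, the count higher at 1 Hz was 4. The median log2 fold change of the class was 0.15, 0.19, and 0.12 at 1, 4, and 10 Hz, where the median over all genes was -0.01 at each. On the log2(TPM + 1) scale, 8 rose and 4 fell at 4 Hz. The 0 falls at 10 Hz in edgeR stand beside 1 fall at an unadjusted p under 0.05, and DESeq2 and limma gave 0 as well, while for rises DESeq2 gave 4 and limma on log2(TPM + 1) 1. Past the fold threshold, both also gave 0 lower at 1 and 10 Hz. These 3 comparisons share the control libraries.

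**Figure D2:**
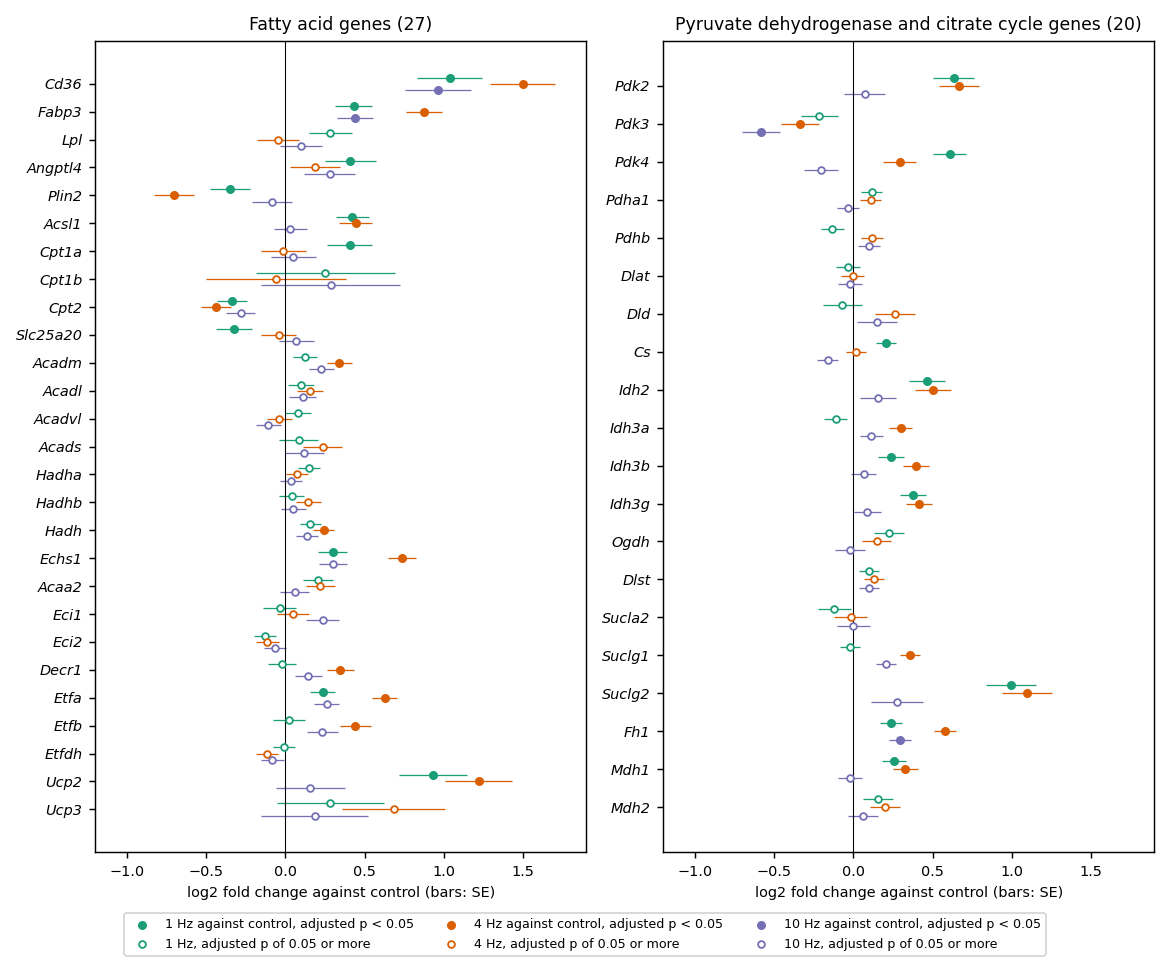
Log2 fold change against control of each of the 47 genes at 1 Hz (green), 4 Hz (orange), and 10 Hz (purple), with the SE of the fit as bars; filled points passed an adjusted p of 0.05 in edgeR and open points did not. Cd36, Ucp2, and Fabp3 lie farthest to the right among the fatty acid genes and Suclg2 among the citrate cycle genes, while the 4 subunits of the pyruvate dehydrogenase complex lie near 0.

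Cd36 held the largest rise of the class at each frequency and Plin2 the largest fall at 1 and 4 Hz, both among the uptake and storage genes. Cd36, a membrane receptor that takes up long-chain fatty acids (chromosome 5, 17986432 to 18094067, minus strand, GRCm39), had a lowest, median, and highest level of 30.4, 37.0, and 41.4 CPM in control. Its levels were 56.4, 71.4, and 108 CPM at 1 Hz, 68.9, 99.6, and 128 CPM at 4 Hz, and 44.1, 62.0, and 107 CPM at 10 Hz. Every stimulated library lay above every control library. Cd36 rose by 1.04 ± 0.21 (log2, SE) at 1 Hz (adjusted p = 0.000423), by 1.5 ± 0.21 at 4 Hz (adjusted p = 4.85e-06), and by 0.96 ± 0.21 at 10 Hz (adjusted p = 0.00680). It was the 1 member of its class past the fold threshold at all 3 frequencies. The 10 Hz libraries were spread more widely than those of control, with an SD of 28.4 against 4.24 CPM.

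Fabp3, the fatty acid binding protein of heart and skeletal muscle (chromosome 4, 130202388 to 130209259, plus strand), spanned 38.9, 42.0, and 49.4 CPM in control (lowest, median, highest). It reached 52.8, 55.5, and 63.8 CPM at 1 Hz, 63.6, 73.5, and 103 CPM at 4 Hz, and 46.2, 56.9, and 73.0 CPM at 10 Hz. No library at 1 or 4 Hz overlapped with control, while 4 of 6 did not at 10 Hz. The rise was 0.43 ± 0.11 at 1 Hz (adjusted p = 0.00479), 0.88 ± 0.11 at 4 Hz (adjusted p = 2.35e-06), and 0.44 ± 0.11 at 10 Hz (adjusted p = 0.0237). The call at 10 Hz was lost when any 1 of 4 libraries was left out, with an adjusted p of up to 0.0743, and on log2(TPM + 1) (0.30, limma adjusted p = 0.0821).

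Plin2, the most abundant member, moved the other way. Its control libraries spanned 386, 456, and 514 CPM (lowest, median, highest), against 292, 349, and 423 CPM at 1 Hz, 203, 269, and 368 CPM at 4 Hz, and 327, 415, and 555 CPM at 10 Hz. At 4 Hz all 6 libraries lay below control, and at 1 Hz 4 of 6 did. Plin2 fell by 0.35 ± 0.13 (log2, SE) at 1 Hz (adjusted p = 0.0329) and by 0.70 ± 0.13 at 4 Hz (adjusted p = 0.000117), and its difference at 10 Hz was -0.09 ± 0.13 (adjusted p = 0.756). The call at 1 Hz was lost when any 1 of 7 libraries was left out, with an adjusted p of up to 0.0847.

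Acsl1, which activates long-chain fatty acids to acyl-CoA, rose by 0.42 ± 0.10 at 1 Hz and by 0.44 ± 0.10 at 4 Hz (adjusted p = 0.00277 and 0.00138), and differed by 0.03 ± 0.10 at 10 Hz (adjusted p = 0.912). Angptl4, a secreted inhibitor of lipoprotein lipase, rose by 0.41 ± 0.16 at 1 Hz (adjusted p = 0.0474), although its control libraries ran from 62.4 to 162 CPM and no 1 Hz library lay above all of them. That call was lost when any 1 of 8 libraries was left out, with total count scaling, and on log2(TPM + 1). Lpl, the lipase itself, passed the test at no frequency, with differences of -0.05 to 0.29.

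**Figure D3:**
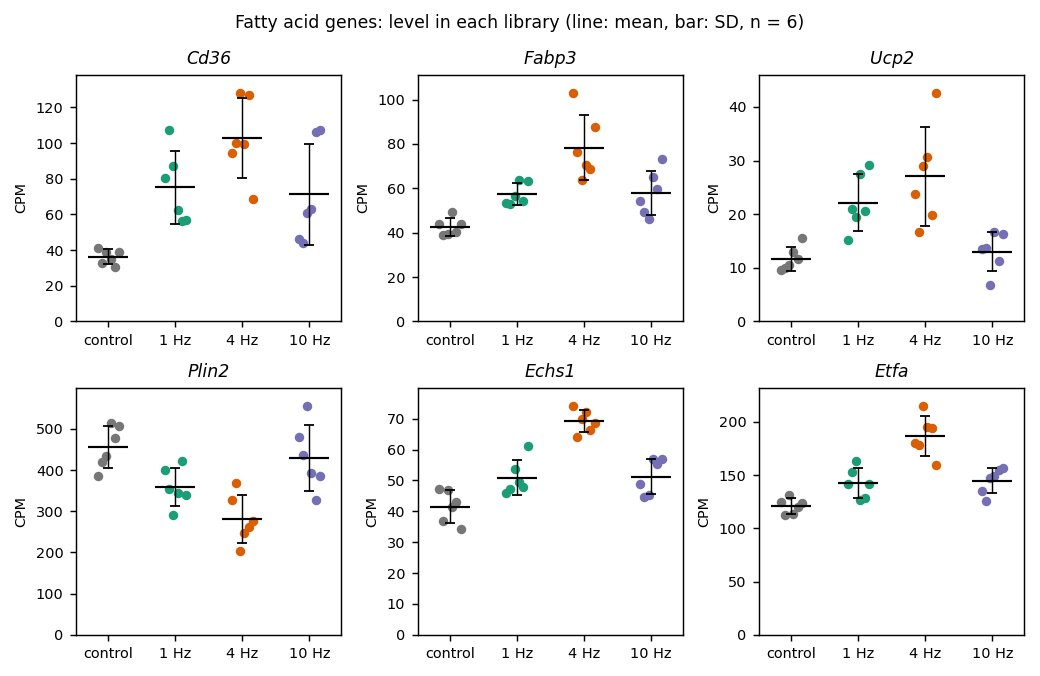
CPM of Cd36, Fabp3, Ucp2, Plin2, Echs1, and Etfa in each of 6 libraries of control, 1, 4, and 10 Hz, with each axis starting at 0, lines for means, and bars for the SD. The 4 Hz libraries of Cd36, Fabp3, Ucp2, Echs1, and Etfa lie above all control libraries and those of Plin2 lie below them.

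Of the carnitine shuttle genes, Cpt2 and Slc25a20 fell and Cpt1a rose at 1 Hz. Cpt2, the palmitoyltransferase of the inner membrane, was at 25.7, 31.4, and 33.7 CPM in control (lowest, median, highest), 20.4, 24.8, and 27.5 CPM at 1 Hz, 20.9, 22.8, and 24.1 CPM at 4 Hz, and 21.7, 24, and 30.4 CPM at 10 Hz. It fell by 0.34 ± 0.09 at 1 Hz (adjusted p = 0.00706) and by 0.44 ± 0.09 at 4 Hz (adjusted p = 0.000609), where no library overlapped with control, and differed by -0.28 ± 0.09 at 10 Hz (adjusted p = 0.0751). Slc25a20, the carrier that exchanges acylcarnitine for carnitine, was at 24.2, 26.3, and 31.2 CPM in control, 18.1, 20.5, and 28.9 CPM at 1 Hz, 21.3, 27.2, and 30.7 CPM at 4 Hz, and 23.1, 29.7, and 31.3 CPM at 10 Hz. It fell at 1 Hz by 0.33 ± 0.11 (adjusted p = 0.0254), with 5 of 6 libraries below control, but the call was lost when any 1 of 6 libraries was left out. Cpt1a, the outer membrane transferase, rose by 0.41 ± 0.14 at 1 Hz (adjusted p = 0.0258), a call lost without any 1 of 5 libraries, with total count scaling, and on log2(TPM + 1), and Cpt1b passed at no frequency (adjusted p = 0.683 at 1 Hz, with an SE of 0.44).

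Promoters are shown for the pair of shuttle genes that fell at 1 Hz. They are the 250 bases before the gene start in RefSeq (build GRCm38.p6, unlike the GRCm39 of the counts), read 5′ to 3′ on the gene's strand, with matches to CCGGAAG, the core bound by ETS factors, on either strand in capitals. Cpt2 (chr4:107923590-107923839, minus strand) holds 2 matches and Slc25a20 (chr9:108661886-108662135, plus strand) holds 1.
Cpt2: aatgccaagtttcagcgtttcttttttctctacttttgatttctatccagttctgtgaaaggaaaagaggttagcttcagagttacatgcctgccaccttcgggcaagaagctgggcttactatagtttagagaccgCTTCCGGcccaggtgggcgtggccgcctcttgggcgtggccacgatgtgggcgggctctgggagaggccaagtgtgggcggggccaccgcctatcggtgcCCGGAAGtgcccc
Slc25a20: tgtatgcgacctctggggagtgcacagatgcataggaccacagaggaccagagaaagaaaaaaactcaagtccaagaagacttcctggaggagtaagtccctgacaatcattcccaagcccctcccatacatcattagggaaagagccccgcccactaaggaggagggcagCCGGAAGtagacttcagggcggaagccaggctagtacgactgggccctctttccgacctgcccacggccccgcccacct
Matches were sought in the 250 bases before and 50 bases after the start, and 41 of the 47 genes had an entry, with 48 promoters. Of these, 5 promoters held CCGGAAG, those of Cpt2, Dlst, Idh3b, Idh3g, and Slc25a20, or 10.4% against 8.86% of all 32851 promoters. Idh3b and Idh3g rose at 1 Hz (0.24 and 0.38), and Dlst did not pass (0.10). AAGGTCA, a form of the site bound by some nuclear receptors, was found in 2 (Acadm and Ogdh, 4.17% against 4.72% of all). The longer ERR site TNAAGGTCA, which contains it, was found in 0 of the 48 (1.28% of all), each sought on both strands. These letters are a description of the windows only.

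The acyl-CoA dehydrogenases, which take the first step of beta-oxidation, gave 1 call among 4 genes. Acadm, for medium-chain substrates, rose by 0.34 ± 0.08 at 4 Hz (adjusted p = 0.00106), with 5 of 6 libraries above control. Acadl, the second most abundant member, was at 162 to 194 CPM in control and at 176 to 210 CPM at 4 Hz and differed by 0.16 ± 0.08 (adjusted p = 0.139). Its differences at 1 and 10 Hz were 0.10 ± 0.08 and 0.11 ± 0.08. Acadvl and Acads passed at no frequency, with differences of -0.11 to 0.24.

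Among the 5 hydratase, dehydrogenase, and thiolase genes, Echs1 stood out at 4 Hz. Echs1, the short-chain enoyl-CoA hydratase, was at 34.3, 42.2, and 47.1 CPM in control (lowest, median, highest), 46.1, 48.7, and 61.3 CPM at 1 Hz, 64.1, 69.2, and 74.1 CPM at 4 Hz, and 44.7, 52.0, and 56.9 CPM at 10 Hz. At 4 Hz it rose by 0.73 ± 0.09 (adjusted p = 1.08e-06) with no overlap, and at 1 Hz by 0.30 ± 0.09 (adjusted p = 0.0118). At 10 Hz the difference was also 0.30 ± 0.09, with an adjusted p of 0.0504. Echs1 and Idh2 were singled out after their values were seen, because each was past the fold threshold at 4 Hz but outside the 3 largest of its class. The same holds for the 4 Hz rise of Etfa, which was already named for its control level. Hadh, the short-chain hydroxyacyl-CoA dehydrogenase, rose by 0.24 ± 0.07 at 4 Hz (adjusted p = 0.00578), a call lost with total count scaling (0.15, adjusted p = 0.0892) and on log2(TPM + 1) (0.06, limma adjusted p = 0.561). Hadha and Hadhb, which form the trifunctional protein, and the thiolase Acaa2 passed at no frequency, with differences of 0.04 to 0.22. Of the 3 auxiliary enzymes for unsaturated chains, the dienoyl-CoA reductase Decr1 rose by 0.35 ± 0.09 at 4 Hz (adjusted p = 0.00221, but 0.14 and limma adjusted p = 0.229 on log2(TPM + 1)) and the isomerases Eci1 and Eci2 passed at no frequency.

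Of the 3 electron transfer genes, Etfa and Etfb rose at 4 Hz. Etfa was at 112, 122, and 131 CPM in control (lowest, median, highest), 126, 142, and 163 CPM at 1 Hz, 159, 187, and 215 CPM at 4 Hz, and 126, 148, and 157 CPM at 10 Hz. It rose by 0.24 ± 0.08 at 1 Hz (adjusted p = 0.0210) and by 0.63 ± 0.08 at 4 Hz (adjusted p = 1.51e-06), where all 6 libraries lay above control. The call at 1 Hz was lost without 1 Hz replicate 3 (adjusted p = 0.0630) and with total count scaling (0.16, adjusted p = 0.107). Its partner Etfb rose by 0.44 ± 0.10 at 4 Hz (adjusted p = 0.000783), with differences of 0.02 ± 0.10 at 1 Hz and 0.23 ± 0.10 at 10 Hz. Etfdh, which passes the electrons on to ubiquinone, differed by -0.12 to -0.01 and passed at no frequency.

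Ucp2, an inner membrane carrier of the uncoupling protein family (chromosome 7, 100142055 to 100151227, plus strand), was at 9.65, 11, and 15.5 CPM in control (lowest, median, highest). It was at 15.2, 20.8, and 29.2 CPM at 1 Hz, 16.8, 26.4, and 42.6 CPM at 4 Hz, and 6.88, 13.6, and 16.7 CPM at 10 Hz. All 6 libraries at 4 Hz and 5 of 6 at 1 Hz lay above control, and the 10 Hz range enclosed that of control. Ucp2 rose by 0.93 ± 0.22 at 1 Hz (adjusted p = 0.00156) and by 1.22 ± 0.21 at 4 Hz (adjusted p = 7.70e-05), against 0.16 ± 0.22 at 10 Hz (adjusted p = 0.741). Ucp3, the muscle paralog, was at 1.67 to 7.38 CPM in control and differed by 0.68 ± 0.33 at 4 Hz (adjusted p = 0.0986).

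Comparisons between frequencies, which share libraries with those above, gave 5 to 7 fatty acid calls each. From 1 to 4 Hz, 5 rose and 1 fell (5.71% and 6.56% of all genes), with 0 either way past the fold threshold (1.59% and 1.40%). At an unadjusted p under 0.05 there were 8 and 3, and past the fold threshold DESeq2 gave 0 and 0 and limma on log2(TPM + 1) 0 and 1. The 5 were Fabp3 (0.45 ± 0.11), Echs1 (0.44 ± 0.09), Etfb (0.42 ± 0.10), Etfa (0.39 ± 0.08), and Decr1 (0.37 ± 0.08), all within the binding and oxidation steps, and the 1 that fell was Cpt1a, a call lost without any 1 of 10 libraries. At 10 Hz against 1 Hz, 2 were higher and 3 lower (17.7% and 18.5% of all genes), of which 0 and 1 passed the fold threshold (9.45% and 8.49%). Cpt1a (without any 1 of 9 libraries) and Eci1 (8) lost their calls. Past the threshold was Ucp2, lower by 0.77 (log2 difference -0.77 ± 0.21, adjusted p = 0.00482). At 10 Hz against 4 Hz, 1 was higher and 6 lower (10.9% and 11.9% of all genes), and past the fold threshold 1 and 2 (5.32% and 5.64%). Plin2 was higher by 0.62 ± 0.13 (adjusted p = 0.00139), and Ucp2 and Cd36 were lower, with differences of -1.06 ± 0.20 and -0.53 ± 0.20 (adjusted p = 0.000808 and 0.0496). The Cd36 call at 10 against 4 Hz was lost when any 1 of 9 libraries was left out. With the small RNA share as a covariate, 0 of 5 calls at 10 against 1 Hz and 0 of 7 at 10 against 4 Hz held. All 6 calls from 1 to 4 Hz held.

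More citrate cycle genes rose than fell at 1 and 4 Hz. At 1 Hz, 9 of 20 rose and 0 fell, where 18.1% of all genes rose and 17.3% fell. At 4 Hz, 10 rose and 1 fell, against 19.2% and 20.2% of all genes. At 10 Hz, 1 rose and 1 fell, against 2.67% and 2.22% of all genes. On the log2(TPM + 1) scale, the rises and falls were 6 and 2 at 1 Hz, 7 and 3 at 4 Hz, and 0 and 2 at 10 Hz. The 0 falls at 1 Hz were 0 at an unadjusted p under 0.05 in edgeR and 0 in DESeq2 too. Past the fold threshold were 3 higher and 0 lower at 1 Hz (9.34% and 8.99% of all genes), 4 and 0 at 4 Hz (10.5% and 9.61%), and 0 and 1 at 10 Hz (1.24% and 0.623%). The single gene lower at 10 Hz, Pdk3, was no longer past the threshold without control replicate 2. Median log2 fold changes of the class were 0.18, 0.28, and 0.07 at 1, 4, and 10 Hz. On the log2(TPM + 1) scale they were 0.06, 0.05, and -0.04, where the median over all genes was -0.06, -0.16, and -0.09, and 1 gene in place of 4 was past the threshold at 4 Hz.

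Of the kinases of pyruvate dehydrogenase, Pdk2 and Pdk4 rose at 1 and 4 Hz and Pdk3 fell at 4 and 10 Hz. Pdk2 (chromosome 11, 94914929 to 94932242, minus strand) was at 29.7, 36.5, and 45.4 CPM in control (lowest, median, highest), 46.4, 58.9, and 62.4 CPM at 1 Hz, 49.4, 55.9, and 75.1 CPM at 4 Hz, and 25.2, 40.3, and 46.2 CPM at 10 Hz. No library at 1 or 4 Hz overlapped with control, with a rise of 0.63 ± 0.13 at 1 Hz (adjusted p = 0.000517) and of 0.67 ± 0.13 at 4 Hz (adjusted p = 0.000223). The difference at 10 Hz was 0.07 ± 0.13 (adjusted p = 0.812).

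Pdk4, the kinase known for its induction by fasting and exercise (chromosome 6, 5483097 to 5496339, minus strand), was at 70.2, 74.8, and 78.2 CPM in control, 90.8, 112, and 138 CPM at 1 Hz, 81.0, 87.9, and 106 CPM at 4 Hz, and 54.6, 64.6, and 76.9 CPM at 10 Hz. All libraries at 1 and 4 Hz lay above control. Pdk4 rose by 0.61 ± 0.11 at 1 Hz (adjusted p = 0.000123) and by 0.29 ± 0.11 at 4 Hz (adjusted p = 0.0304), and differed by -0.20 ± 0.11 at 10 Hz (adjusted p = 0.287). The call at 4 Hz was lost without any 1 of 3 libraries, with total count scaling (0.19, adjusted p = 0.133), and on log2(TPM + 1) (0.10, limma adjusted p = 0.504). Among the frequencies, Pdk4 was lower at 10 than at 1 Hz, by a log2 difference of -0.81 ± 0.11 (adjusted p = 3.92e-06).

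Pdk3 was at 19.0, 23.5, and 29.5 CPM in control, 17.1, 20.1, and 22.5 CPM at 1 Hz, 13.8, 18.3, and 21.9 CPM at 4 Hz, and 13.4, 14.9, and 19.9 CPM at 10 Hz. It fell by 0.34 ± 0.12 at 4 Hz (adjusted p = 0.0240), where 4 of 6 libraries lay below control, and by 0.58 ± 0.12 at 10 Hz (adjusted p = 0.00466), where 5 of 6 did. The call at 4 Hz was lost without any 1 of 3 libraries. As a share of the summed level of Pdk1 to Pdk4 (TPM, SD, n = 6), Pdk3 was 10.1 ± 1.07% in control, 7.60 ± 0.649% at 1 Hz, 7.83 ± 2.03% at 4 Hz, and 7.80 ± 1.41% at 10 Hz. Pdk4 was 19.3 ± 1.27%, 25.8 ± 4.37%, 21.3 ± 1.86%, and 19.3 ± 2.65% in the same order, and Pdk2 was 14.9 ± 1.65%, 20.3 ± 1.81%, 21.5 ± 3.47%, and 18.1 ± 3.08%. Pdk1, which is no member of the class, held 55.7 ± 2.27%, 46.3 ± 4.76%, 49.3 ± 3.10%, and 54.8 ± 2.80%. The 4 subunit genes of the complex itself, Pdha1, Pdhb, Dlat, and Dld, gave 0 calls against control in edgeR, with differences of -0.13 to 0.26, and 1 difference (Dld at 4 Hz) at an unadjusted p under 0.05. DESeq2 gave 0 calls as well, and limma on log2(TPM + 1) 1 fall at 1 Hz and 1 at 4 Hz. Pdhb was at 191, 212, and 241 CPM in control and at 168, 197, and 210 CPM at 1 Hz, a difference of -0.13 ± 0.07 (adjusted p = 0.147).

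**Figure D4:**
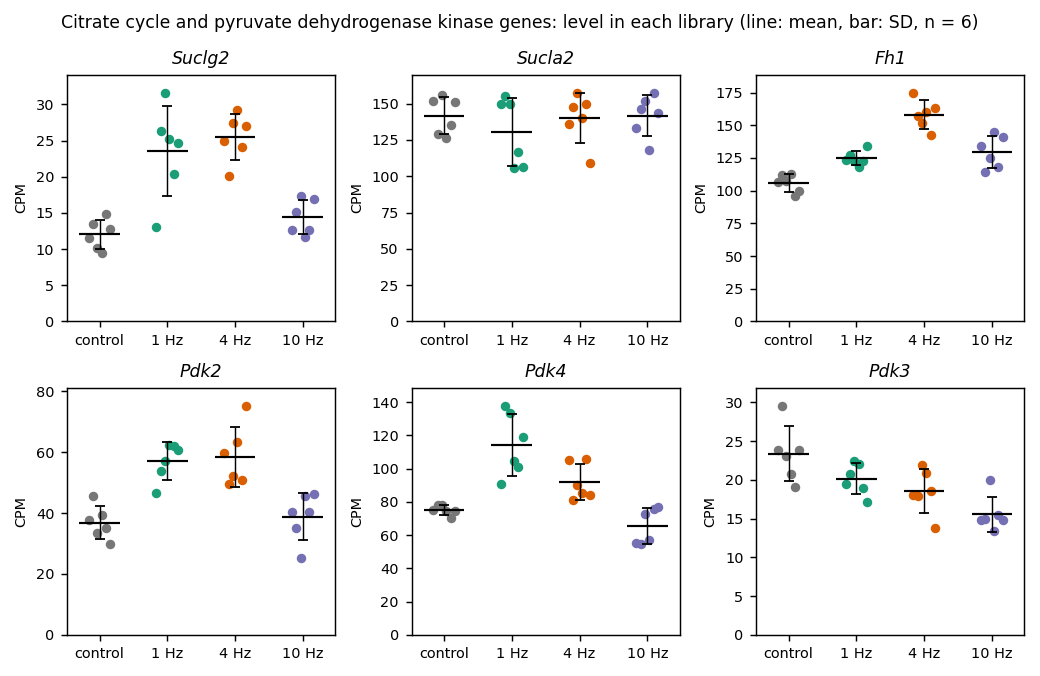
CPM of Suclg2, Sucla2, Fh1, Pdk2, Pdk4, and Pdk3 in each of 6 libraries of control, 1, 4, and 10 Hz, with each axis starting at 0, lines for means, and bars for the SD. Suclg2 and Pdk2 are high at 1 and 4 Hz and overlap with control at 10 Hz, Sucla2 overlaps throughout, and Pdk3 is lowest at 10 Hz.

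Citrate synthase and the isocitrate dehydrogenases gave 4 calls of 5 at both 1 and 4 Hz. Cs, the entry enzyme of the cycle, rose at 1 Hz by 0.21 ± 0.06 (adjusted p = 0.0129) and differed by 0.02 ± 0.06 at 4 Hz, and the 1 Hz call was lost with total count scaling (0.13, adjusted p = 0.112) and on log2(TPM + 1) (0.15, limma adjusted p = 0.0730). Idh2, the mitochondrial NADP-dependent isocitrate dehydrogenase, was at 39.0, 49.9, and 53.0 CPM in control, 48.9, 66.7, and 80.03 CPM at 1 Hz, 54.1, 66.7, and 87.2 CPM at 4 Hz, and 50.0, 54.0, and 57.6 CPM at 10 Hz. It rose by 0.47 ± 0.11 at 1 Hz (adjusted p = 0.00224) and by 0.50 ± 0.11 at 4 Hz (adjusted p = 0.000880). Of the NAD-dependent enzyme, whose catalytic subunit is Idh3a, the subunit genes Idh3b and Idh3g rose at 1 Hz (0.24 ± 0.08 and 0.38 ± 0.08, adjusted p = 0.0238 and 0.00104) and at 4 Hz (0.40 ± 0.08 and 0.41 ± 0.08). Idh3a differed by -0.11 ± 0.07 at 1 Hz and rose at 4 Hz by 0.30 ± 0.07 (adjusted p = 0.00193), against 0.05 on log2(TPM + 1) (limma adjusted p = 0.633). The 1 Hz call of Idh3b was lost without any 1 of 3 libraries, with total count scaling, and on log2(TPM + 1). Ogdh and Dlst, of the oxoglutarate dehydrogenase complex, passed at no frequency.

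Suclg2, the GTP-forming beta subunit of succinyl-CoA ligase, held the largest rise of the class (chromosome 6, 95433231 to 95695866, minus strand). It was at 9.52, 12.2, and 14.9 CPM in control (lowest, median, highest), 13.1, 24.9, and 31.6 CPM at 1 Hz, 20.2, 26.0, and 29.2 CPM at 4 Hz, and 11.7, 13.9, and 17.3 CPM at 10 Hz. All libraries at 4 Hz and 5 of 6 at 1 Hz lay above control. Suclg2 rose by 0.99 ± 0.16 at 1 Hz (adjusted p = 5.12e-05) and by 1.10 ± 0.16 at 4 Hz (adjusted p = 8.86e-06), and differed by 0.28 ± 0.16 at 10 Hz (adjusted p = 0.350). The ATP-forming alternative, Sucla2, was the more abundant beta subunit and differed by -0.12 ± 0.10, -0.02 ± 0.10, and 0.00 ± 0.10 at 1, 4, and 10 Hz. Suclg2 made up 5.34 ± 1.02% of both beta subunits in control, 10.7 ± 3.18% at 1 Hz, 10.5 ± 1.69% at 4 Hz, and 6.22 ± 0.813% at 10 Hz (TPM, SD, n = 6). The shared alpha subunit, Suclg1, rose at 4 Hz by 0.36 ± 0.06 (adjusted p = 0.000104), with no overlap.

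Fh1, fumarase (chromosome 1, 175425290 to 175453205, minus strand), was at 96.2, 107, and 113 CPM in control, 118, 123, and 134 CPM at 1 Hz, 142, 158, and 175 CPM at 4 Hz, and 114, 130, and 145 CPM at 10 Hz. Every stimulated library lay above every control library. Fh1 rose by 0.24 ± 0.07 at 1 Hz (adjusted p = 0.00921), by 0.58 ± 0.07 at 4 Hz (adjusted p = 8.95e-07), and by 0.29 ± 0.07 at 10 Hz (adjusted p = 0.0136). On the log2(TPM + 1) scale, the differences at 1 and 10 Hz were 0.03 and 0.09 and did not pass (limma adjusted p = 0.808 and 0.532), and with total count scaling that at 1 Hz was 0.16 (adjusted p = 0.0844). The 10 Hz call was also lost in a fit of only the 12 libraries compared (adjusted p = 0.0598). Mdh1 was at 199, 213, and 246 CPM in control, 235, 269, and 283 CPM at 1 Hz, 243, 276, and 313 CPM at 4 Hz, and 192, 211, and 237 CPM at 10 Hz. It rose by 0.26 ± 0.08 at 1 Hz and by 0.33 ± 0.08 at 4 Hz (adjusted p = 0.0106 and 0.00134), with 4 of 6 libraries above control each time. The first call was lost with total count scaling (0.18, adjusted p = 0.0670) and the second on log2(TPM + 1) (0.14, limma adjusted p = 0.146). Mdh2, the most abundant member, was at 234, 258, and 290 CPM in control and at 252, 284, and 364 CPM at 4 Hz, and its difference of 0.20 ± 0.09 did not pass (adjusted p = 0.0928).

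Between frequencies, 9 of 20 citrate cycle genes were lower at 10 Hz than at 1 Hz, and 9 lower than at 4 Hz. From 1 to 4 Hz, 4 rose (Idh3a, Suclg1, Fh1, and Pdhb, by 0.25 to 0.41) and 2 fell (Pdk4 and Cs), where 5.71% and 6.56% of all genes did. At 10 Hz against 1 Hz, 3 of 20 were higher and 9 lower, against 17.7% and 18.5% of all genes. Past the fold threshold, 0 were higher and 3 lower (9.45% and 8.49% of all genes). The 3 were Pdk4, Suclg2 (-0.72 ± 0.15, adjusted p = 0.000699), and Pdk2 (-0.56 ± 0.13, adjusted p = 0.00120). At 10 Hz against 4 Hz, 0 were higher and 9 lower, against 10.9% and 11.9% of all genes. Past the fold threshold, 0 were higher and 2 lower (5.32% and 5.64% of all genes). The 2 were Suclg2 (-0.82 ± 0.15, adjusted p = 0.000595) and Pdk2 (-0.59 ± 0.13, adjusted p = 0.00176). From 1 to 4 Hz, 0 of the 20 were past the fold threshold in edgeR, DESeq2, and limma, where 1.59% of all genes were higher and 1.40% lower in edgeR. At an unadjusted p under 0.05, 5 were higher and 2 lower. At 10 against 4 Hz, 0 were higher at an unadjusted p under 0.05 and in DESeq2 and limma. Leaving out 1 library ended calls of Pdk4 (any 1 of 8), Cs (9), and Pdhb (1 Hz replicate 4) from 1 to 4 Hz, of Ogdh (any 1 of 8), Idh2 (3), and Idh3a (2) at 10 against 1 Hz, and of Cs (5) and Idh2 (2) at 10 against 4 Hz. With the small RNA share as a covariate, 1 of 12 calls at 10 against 1 Hz (Pdk4) and 0 of 9 at 10 against 4 Hz held. All 6 calls from 1 to 4 Hz held.

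Other genes of both pathways were counted from wider lists. Of 44 further fatty acid genes, 37 were tested, and 14 rose and 3 fell at 1 Hz (18.1% and 17.3% of all genes), 13 and 4 at 4 Hz (19.2% and 20.2%), and 2 and 0 at 10 Hz (2.67% and 2.22%). The largest rises were those of G0s2, an inhibitor of triglyceride lipase (2.31 ± 0.45 at 4 Hz, adjusted p = 0.000256), and Acot2, a mitochondrial acyl-CoA thioesterase (1.01 ± 0.14 at 1 Hz, adjusted p = 9.97e-06). The largest falls were those of Acad10 (-0.65 ± 0.16) and the peroxisomal reductase Decr2 (-0.54 ± 0.15), both at 4 Hz. Of 29 further citrate cycle genes, 28 were tested, and 7 rose and 3 fell at 1 Hz, 12 and 5 at 4 Hz, and 0 and 1 at 10 Hz, beside the same shares of all genes. Pck2, the mitochondrial phosphoenolpyruvate carboxykinase, rose by 1.16 ± 0.16 at 1 Hz (adjusted p = 1.32e-05) and Pcx, pyruvate carboxylase, by 1.03 ± 0.16 (adjusted p = 3.47e-05). The mitochondrial malic enzyme Me2 fell by 0.75 ± 0.09 (adjusted p = 1.51e-06) and the pyruvate dehydrogenase phosphatase Pdp2 fell by 0.68 ± 0.21 (adjusted p = 0.0122), both at 4 Hz.

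With the log2 share of small RNAs added to the fit as a covariate, most calls against control did not pass. How many of all genes passed with the covariate is not given here, so the losses cannot be called particular to these classes. At 1 Hz, 0 of 11 fatty acid calls and 0 of 9 citrate cycle calls held, with 4 and 2 genes at an unadjusted p under 0.05. At 4 Hz, Cd36, Echs1, and Etfa held of 12 fatty acid calls, and Fh1 and Suclg1 of 11 citrate cycle calls. At 10 Hz, whose share overlapped with control, Cd36, Fabp3, Fh1, and Pdk3 all held. In that fit Cd36 was higher by 0.68 ± 0.30 at 1 Hz (adjusted p = 0.401), 1.14 ± 0.30 at 4 Hz (adjusted p = 0.0435), and 0.87 ± 0.21 at 10 Hz (adjusted p = 0.0150). Suclg2 was at 0.65 ± 0.25 and 0.77 ± 0.24 at 1 and 4 Hz (adjusted p = 0.312 and 0.0856). Since the share separated 1 and 4 Hz from control without overlap, its effect cannot be told apart from that of light at these frequencies. Between 1 and 4 Hz, where the shares overlapped, 7 fatty acid and 6 citrate cycle genes passed with the covariate, including all 12 that passed without it. At 10 Hz the shares ran from 38.5 to 274 CPM, against 15.5 to 70.2 at 1 Hz and 18.3 to 51.1 at 4 Hz. These ranges met only at their edges, so the share and frequency cannot be well told apart in these comparisons. At 10 against 1 Hz, 0 of 5 fatty acid and 1 of 12 citrate cycle calls (Pdk4) held. At 10 against 4 Hz, 0 of 7 and 0 of 9 held.

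**Figure D5:**
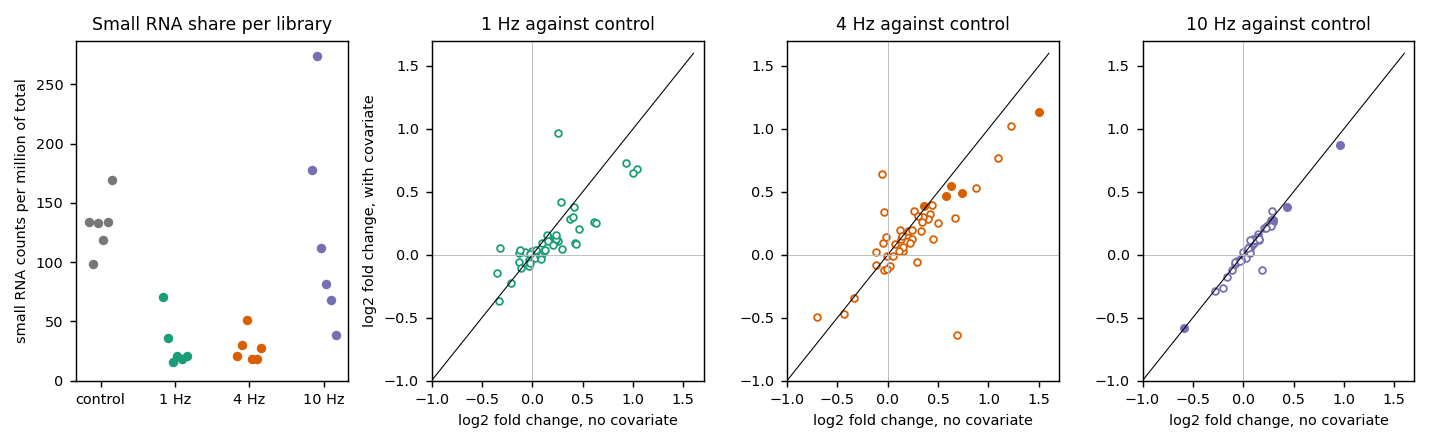
Small RNA level (CPM of the total) in each of 24 libraries (left) and log2 fold changes of the 47 genes against control without and with the log2 small RNA share as a covariate (right, one panel per frequency, with the line of equal values). Filled points passed an adjusted p of 0.05 with the covariate: none at 1 Hz, Cd36, Echs1, Etfa, Fh1, and Suclg1 at 4 Hz, and Cd36, Fabp3, Fh1, and Pdk3 at 10 Hz.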

How the data were processed

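Bulk RNA-seq covered 24 muscle tissues, 6 per condition, grouped by their titles. Directional poly(A) libraries were read in paired ends (Singular G4), and the authors processed the reads with nf-core/rnaseq (STAR and Salmon per the submitters' processing notes) against GRCm39. Per the labels, low-input samples were ribodepleted, without naming them. The deposited estimated counts per gene are expected counts from Salmon, not normalized, and the deposited TPM table was scaled by the authors to a fixed sum per library. Not given in the sources used here are the annotation release and the strand setting of the read counting.

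The 47 genes, role groups, wider lists, markers, and motifs were chosen with earlier results of these data known. Estimated counts were rounded, genes were filtered with filterByExpr (13318 genes, 99.8% of counts), scaled by TMM, and fitted with edgeR 4.0.16 (glmQLFit and glmQLFTest, limma 3.58.1, R 4.3.3) in 1 fit of all 24 libraries, with 6 comparisons as contrasts and Benjamini-Hochberg values over all genes tested. SEs were derived from the log2 fold change and its F statistic. CPM use TMM-scaled library sizes. The fold threshold, an absolute log2 fold change above 0.5, was applied to genes called at an adjusted p of 0.05. Given by library are, per class and comparison with control, the 3 largest rises and 3 largest falls among genes with an adjusted p below 0.05 and a mean of at least 5 CPM, and the 3 highest in control; the 2 largest each way are named from each wider list. Positions are from GENCODE M39 (GRCm39). Of the promoter motifs searched, 3 with 10 or more letters were dropped and are not reported. Replicate numbers did not pair samples (correlation of deviations between same-numbered samples -0.18 to 0.36). The fits were tested on simulated data. Alternatives were DESeq2 1.42.0 size factors and test, total count scaling, no filter or a minimum mean of 5 CPM, limma on log2(TPM + 1) and log2(TPM + 0.1) with a minimum mean of 1 TPM and on log2(TPM + 1) without it, only the 12 libraries compared, the replicate block, an adjusted p alone, the log2 share of 25 small RNAs as a covariate, and leaving out each library. With a pseudocount, log2 TPM differences understate changes of low genes. SDs measure the spread between libraries, and p-values set a difference against a spread estimated between libraries. Neither covers variation between experiments. A gene of the wider fatty acid list is not reported here by name.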

Additional observations from a re-analysis of the deposited data

Results flagged for a closer look

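Of 188 sets of 6 libraries (47 genes in 4 conditions), 5 held a library far from the other 5 by Dixon's ratio at its 95% critical value, where chance flags about 1 in 20 sets. Angptl4 was at 155 CPM in 10 Hz replicate 3 and at 110 to 125 CPM in the others. Pdk3 was at 19.9 CPM in the same library and at 13.4 to 15.5 CPM in the others. Etfb was at 41.8 CPM in control replicate 6, against 51.9 to 55.6 CPM, and Pdha1 was at 388 CPM in that library, against 333 to 352 CPM. Idh3g was at 60.9 CPM in control replicate 5, against 76.1 to 81.4 CPM.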

How the results depend on the processing

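Of 92 calls of single members over 6 comparisons, the direction held in every alternative run except with the small RNA share as a covariate, where Slc25a20 at 1 Hz went to 0.0547 and Pdk4 at 4 Hz to -0.0542 (log2). That covariate ended 70 of the 92 calls, total count scaling 15, limma on log2(TPM + 1) or log2(TPM + 0.1) 23 each, log2(TPM + 1) without a filter 34, no filter on counts 14, a minimum mean of 5 CPM 7, only the 12 libraries compared 7, DESeq2 size factors 2, and DESeq2 0. Of counts past the fold threshold, the covariate left, for fatty acid genes, 0 higher at 1 Hz, 2 higher and 0 lower at 4 Hz, 0 lower at 10 against 1 Hz, and 0 either way at 10 against 4 Hz, and for citrate cycle genes 0 higher at 1 Hz and at 4 Hz, 1 lower at 10 against 1 Hz, and 0 lower at 10 against 4 Hz. Adjusted p alone gave, higher and lower, 8 and 3, 10 and 2, and 2 and 0 fatty acid genes at 1, 4, and 10 Hz against control, 5 and 1 for 4 against 1 Hz, 2 and 3 for 10 against 1 Hz, and 6 lower for 10 against 4 Hz, and 9 and 0, 10 and 1, and 1 and 1 citrate cycle genes against control, 4 and 2, 3 and 9, and 0 and 9 between frequencies. Total count scaling gave 2 fatty acid genes lower and 2 citrate cycle genes higher at 4 Hz, and 1 fatty acid gene lower at 10 against 4 Hz. All 3 limma fits on TPM gave 2 fatty acid genes lower and 1 citrate cycle gene higher at 4 Hz, 1 lower from 1 to 4 Hz, 1 higher at 10 against 1 Hz, and 1 lower at 10 against 4 Hz, and without the filter 0 fatty acid genes lower at 10 against 1 Hz. A minimum of 5 CPM, the 12 libraries, and the replicate block each gave 1 fatty acid gene lower at 10 against 4 Hz. Replicate numbers do not pair samples, and the block ended 2 of 92 calls (Cd36 at 10 against 4 Hz, Pdk4 from 1 to 4 Hz). Apart from those named, the cause of these shifts was not tested.

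Leaving out 1 library gave 2 to 4 fatty acid genes higher at 1 Hz (4 without control replicate 6), 0 to 1 citrate cycle genes lower at 10 Hz (0 without control replicate 2), and 1 to 3 fatty acid genes lower at 10 against 4 Hz. Calls against control were lost for Plin2 at 1 Hz without control replicates 4, 5, or 6 or 1 Hz replicates 2, 3, 4, or 6, for Slc25a20 at 1 Hz without control 4 or 6 or 1 Hz 3, 4, 5, or 6, for Angptl4 at 1 Hz without control 1, 2, or 3 or 1 Hz 2, 3, 4, 5, or 6, for Cpt1a at 1 Hz without control 1, 2, 3, or 4 or 1 Hz 5, for Idh3b at 1 Hz without control 6 or 1 Hz 4 or 6, for Etfa at 1 Hz without 1 Hz 3, for Pdk3 at 4 Hz without control 2 or 4 Hz 1 or 6, for Pdk4 at 4 Hz without control 5 or 4 Hz 1 or 5, and for Fabp3 at 10 Hz without control 2 or 5 or 10 Hz 4 or 6. Between frequencies, such losses touched Cd36 and Cs at 10 against 4 Hz, Cpt1a in both comparisons with 1 Hz, and Pdk4 and Cs from 1 to 4 Hz, among others. On the TPM scales the median over all genes at 4 Hz against control was -0.16 or -0.18 with the filter, and the class medians were 0.06 (fatty acid) and 0.05 (citrate cycle). Depth limits Cpt1b and Ucp3, whose SE of 0.33 to 0.44 against control is above that of the other members.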

Other observations

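Some genes of the wider lists were picked for description after their values were seen. Oxct1, the rate-limiting transferase of ketone body oxidation, rose by 0.64 ± 0.11 at 1 Hz and by 0.89 ± 0.11 at 4 Hz (edgeR adjusted p = 0.000132 and 1.85e-06). The mitochondrial thiolase Acat1 rose by 0.31 ± 0.08 and 0.45 ± 0.08 (adjusted p = 0.00530 and 0.000150). Acacb, which makes the malonyl-CoA that inhibits the carnitine palmitoyltransferase, rose by 0.68 ± 0.18 at 1 Hz and by 0.67 ± 0.18 at 4 Hz (adjusted p = 0.00428 and 0.00352). Of the succinate dehydrogenase genes, Sdhb, Sdhc, and Sdhd rose at 4 Hz, by 0.34 to 0.46, and none of these passed at 1 Hz. Sdha is not described here, so these genes do not stand for the whole complex.

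At 10 Hz, where few genes passed, 3 genes of the wider lists did. Fabp5, a fatty acid binding protein of many tissues, rose by 0.59 ± 0.13 (adjusted p = 0.00836) and the thioesterase Acot13 by 0.43 ± 0.07 (adjusted p = 0.000942), while Me2 fell by 0.48 ± 0.09 (adjusted p = 0.00315). These passed at 1 and 4 Hz too, in the same direction.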
